A study of Danio rerio with 12 samples.

Results

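The genes described here encode proteins of the mitochondrial ribosome, subunits of the machinery that imports proteins into mitochondria, and the chaperones, proteases and prohibitin of mitochondrial protein quality control. They were chosen by symbol. The rule took mitochondrial ribosomal proteins (mrpl, mrps), translocase subunits (tomm, timm), *hspd1*, *hspe1*, *hspa9*, *lonp1*, *clpp*, *clpx*, *afg3l*, *yme1l* and *phb*, as named in the tables of the study, of which part was held here, and left out the small Tim chaperones, which are themselves substrates of Mia40. It found 36 of the 31953 genes measured: 13 of the large and 10 of the small ribosomal subunit, *mrps36*, 6 of import, 2 chaperones, and 4 proteases or prohibitins. The symbols of 30 members came from tables that list genes or proteins whether or not they changed. The other 6 were named only where the study had called a change, *hspd1* and *lonp1* by RNA in the same 5 dpf comparison as below, and *TIMM29*, *mrpl38*, *mrps18c* and *mrps27* by protein. The values of *hspd1* and *lonp1* at 5 dpf are therefore given as a description, with no test.

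RNA-Seq was carried out on pools of 5 whole zebrafish larvae of the AB line. Homozygous *mia40a* mutants (Mut, labelled *mia40a* waw1/waw1) were compared with wild-type larvae (WT, *mia40a* +/+) at 5 and 8 days post fertilization (dpf), with 3 pools of each genotype at each age, or 12 libraries in all. Larvae came from crosses of heterozygous parents, with Mut and WT pools drawn from one clutch. Both genotypes taken at 8 dpf had been fed from 5 dpf, so that age and feeding cannot be told apart. The study names a possible bias from starvation in the 8 dpf mutants, and for that reason based its further analysis on 5 dpf. Nutritional state was not tested here. The 8 dpf pools were collected and processed at different times. The authors removed a batch effect from these values, and the sources used here do not name the batches. Replicate 3 of each genotype was taken as the second batch by inference, because its mean was nearly equal to that of replicates 1 and 2 at 8 dpf, with a median absolute difference over genes of 0.0056 on the log2 scale, against 0.0719 at 5 dpf. Values are read counts scaled for library size, summing to between 16997847 and 18177809 per library at 5 dpf and between 22595423 and 25417541 at 8 dpf. Because the ages were scaled separately, levels are compared only within an age, and only the effect of the genotype is compared between ages.

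Mia40 is the receptor and oxidase of the intermembrane space, where it traps small cysteine-rich proteins as they are imported. The proteins of the mitochondrial ribosome are encoded in the nucleus, enter through the TOM complex of the outer membrane and the TIM23 complex of the inner membrane, and translate the few proteins encoded by mitochondrial DNA. Inside, mtHsp70 pulls precursors into the matrix, Hsp60 with its lid Hsp10 folds them, Lon and ClpXP degrade those that misfold, and prohibitin rings hold proteins in the inner membrane. When misfolded proteins build up in the matrix, the genes for these chaperones and proteases are known, in worms and in mammals, to be transcribed more.

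At 5 dpf the transcripts of 15 of the 36 members were higher in Mut than in WT larvae (limma, adjusted p under 0.05), where 3.82% of all 22521 genes tested were higher. None of the 36 was lower, where 2.17% of all genes were. At an unadjusted p under 0.05, 31 members were higher and 0 lower (limma). Of all 22521 genes, 2551 were higher and 1967 lower at that mark, or 20.1% in either direction. All 36 log2 fold changes were positive, with a median of 0.33, against 49.8% of all genes and a median of -0.001. The 3 Mut pools lay wholly above the 3 WT pools for 29 members, or 80.6%, where 12.9% of all genes did so, and below them for 0, where 11.7% did. Without *hspd1* and *lonp1*, 13 of 34 were higher and the median was 0.33. Of the 30 members named without a list of calls, 11 were higher. By class, the calls covered 7 of 13 large and 4 of 10 small subunit genes, and 0 of 6 import genes. The 2 chaperones called were *hspa9* and *hspd1*, and the 2 called of 4 proteases and prohibitin were *phb2a* and *lonp1*. The counts of 15, 31 and 29 also include *hspd1* and *lonp1*, which became members through their call in this comparison. In whole larvae, a change in the number of cells of a type and a change in RNA per cell cannot be told apart.

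The largest differences were those of the chaperones and of Lon. *hspd1*, encoding the chaperonin Hsp60, had normalized values of 4891, 5128 and 4420 in the Mut pools at 5 dpf, against 1888, 1870 and 2034 in the WT pools. Every Mut pool was more than double every WT pool, and the log2 fold change was 1.32 ± 0.08 (SE, n = 3 pools each), or 2.49-fold. *hspa9*, encoding mtHsp70, rose to 7864, 8482 and 7399 in Mut, against 4124, 4113 and 4016 in WT. The WT pools lay within a narrow band far below the Mut pools, and the log2 fold change of 0.95 ± 0.07 passed the test (limma, adjusted p = 5.8e-05). Of the 30 members named without a list of calls, it alone also reached a log2 fold change of 0.9, the study's second threshold, which 0.608% of all genes passed in this direction.

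*lonp1*, encoding the Lon protease of the matrix, had 843, 835 and 790 in Mut pools at 5 dpf, against 313, 317 and 357 in WT pools. The groups did not overlap, and the log2 fold change was 1.32 ± 0.08, or 2.5-fold. *phb2a*, 1 of the 2 kinds of subunit of the prohibitin ring, rose to 1377, 1459 and 1304 in Mut, against 883, 862 and 886 in WT. Its groups were also apart (log2 fold change 0.65 ± 0.07, limma adjusted p = 6.0e-04). The ATP-dependent proteases did not all share this. *clpxa*, encoding the unfolding subunit of ClpXP, had 415, 402 and 399 in Mut and 411, 350 and 415 in WT, so that the groups overlapped (log2 fold change 0.05 ± 0.09, limma adjusted p = 0.807). *yme1l1b*, encoding the i-AAA protease that faces the intermembrane space, had a log2 fold change of 0.22 ± 0.10 (limma, adjusted p = 0.257). *clpxa* and *yme1l1b* each have a second copy in zebrafish, and reads shared between copies had been left out of the counts.

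**Figure D1:**
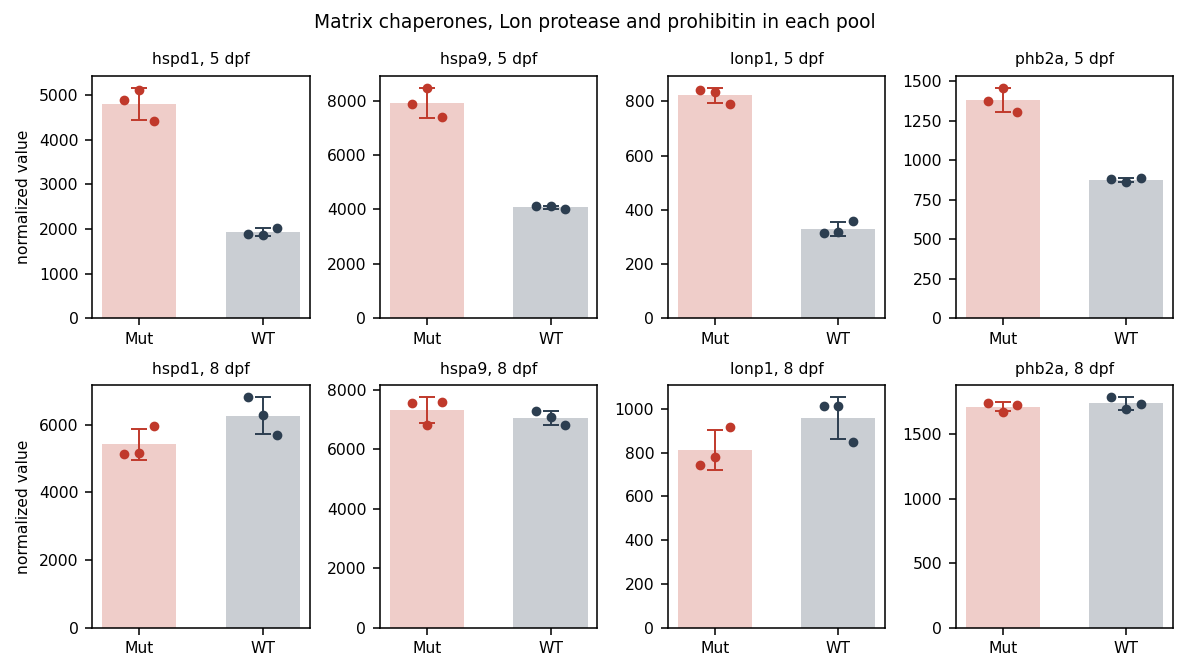
Normalized values of *hspd1*, *hspa9*, *lonp1* and *phb2a* in each pool, at 5 dpf (top row) and 8 dpf (bottom row). Each point is a pool of 5 larvae, bars are means and error bars the SD over 3 pools of Mut (red) or WT (dark grey). At 5 dpf every Mut point lies above every WT point, and at 8 dpf the groups overlap in each of the 4 genes.

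Of the 13 genes for proteins of the large ribosomal subunit, 7 had higher transcripts in Mut larvae at 5 dpf, where 3.82% of all genes did. All 13 had a positive log2 fold change, between 0.23 and 0.77, as did 49.8% of all genes. *mrpl38* changed most, with 827, 889 and 805 in Mut pools and 473, 519 and 482 in WT pools. The lowest Mut pool was far above the highest WT pool (log2 fold change 0.77 ± 0.08, limma adjusted p = 4.3e-04). *mrpl12*, whose human protein is also known to bind the mitochondrial RNA polymerase, had 965, 1130 and 1092 in Mut, against 724, 691 and 684 in WT. It too was apart in every pool (log2 fold change 0.60 ± 0.08, limma adjusted p = 0.00202).

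*mrpl9*, a protein with a counterpart in bacterial ribosomes, had 260, 330 and 302 in Mut pools and 207, 187 and 200 in WT pools (log2 fold change 0.58 ± 0.11). *mrpl45*, which in mammals sits at the tunnel exit next to the inner membrane, had 403, 453 and 403 in Mut, against 313, 282 and 275 in WT (log2 fold change 0.53 ± 0.09). *mrpl57* had 400, 487 and 424 in Mut, against 306, 324 and 322 in WT (log2 fold change 0.46 ± 0.10). All 3 genes had their Mut pools above their WT pools, with limma adjusted p of 0.0143, 0.0091 and 0.0207. *mrpl37* and *mrpl2* changed less. *mrpl37* had 727, 854 and 824 in Mut, against 651, 621 and 621 in WT (log2 fold change 0.34 ± 0.08, limma adjusted p = 0.0364). *mrpl2*, close to the catalytic centre of the subunit, had 957, 1054 and 1037 in Mut, against 791, 870 and 758 in WT (log2 fold change 0.33 ± 0.08, limma adjusted p = 0.035). *mrpl41* had the smallest value of the subunit, 311, 377 and 357 in Mut against 318, 299 and 271 in WT, with overlapping groups (log2 fold change 0.23 ± 0.10, limma adjusted p = 0.248). The log2 fold changes of *mrpl13*, *mrpl15*, *mrpl19*, *mrpl21* and *mrpl53* were between 0.27 and 0.44, and *mrpl13* missed the threshold narrowly (limma, adjusted p = 0.0502).

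In the small subunit 4 of 10 members had higher transcripts at 5 dpf, where 3.82% of all genes did. *mrps35* had 550, 574 and 600 in Mut pools and 460, 435 and 372 in WT pools (log2 fold change 0.45 ± 0.10, limma adjusted p = 0.0223). *mrps27*, which in human cells is an RNA-binding pentatricopeptide repeat protein, had 453, 498 and 451 in Mut, against 365, 332 and 337 in WT (log2 fold change 0.44 ± 0.09, limma adjusted p = 0.0153). Neither gene had overlapping groups. *mrps31*, a protein that bacterial ribosomes lack, had 610, 618 and 655 in Mut, against 495, 477 and 473 in WT (log2 fold change 0.38 ± 0.07, limma adjusted p = 0.0151). *mrps15* had 539, 572 and 584 in Mut, against 466, 424 and 426 in WT (log2 fold change 0.37 ± 0.08, limma adjusted p = 0.0259). These pools were apart as well. At the other end was *mrps25*, with 730, 871 and 778 in Mut, against 871, 703 and 687 in WT, where the groups shared their highest value (log2 fold change 0.08 ± 0.11, limma adjusted p = 0.741). The remaining members of the subunit, *mrps2*, *mrps14*, *mrps18b*, *mrps18c* and *mrps26*, had log2 fold changes between 0.12 and 0.32.

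*mrps36* is set apart because the reference gene table names it *kgd4*, and its product is now placed in the 2-oxoglutarate dehydrogenase complex. Its values were 982, 1155 and 928 in Mut and 849, 815 and 787 in WT at 5 dpf, with no overlap (log2 fold change 0.32 ± 0.09, limma adjusted p = 0.0694).

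None of the 6 import members passed the test at 5 dpf (limma), where 3.82% of all genes were higher. An unadjusted p under 0.05 was reached by 5 of them, and by 20.1% of all genes in either direction. The Mut pools lay above all WT pools for 5, and for 12.9% of all genes. *tomm34*, a cytosolic partner of chaperones that binds precursors, had 258, 250 and 274 in Mut, against 224, 185 and 199 in WT (log2 fold change 0.37 ± 0.11, limma adjusted p = 0.0741). The small TOM subunits *tomm5*, *tomm6* and *tomm7* had log2 fold changes of 0.28, 0.33 and 0.32, and *tomm6* had 425, 574 and 499 in Mut, against 396, 418 and 368 in WT. *tomm70a*, the receptor for carrier proteins and other precursors without a presequence, had 1212, 1186 and 1212 in Mut, against 1017, 1094 and 1065 in WT. Its pools did not overlap, but the change was small (log2 fold change 0.19 ± 0.07, limma adjusted p = 0.142). *TIMM29*, a subunit of the TIM22 carrier translocase in human cells, had 259, 267 and 288 in Mut, against 248, 230 and 253 in WT (log2 fold change 0.15 ± 0.09, limma adjusted p = 0.404).

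**Figure D2:**
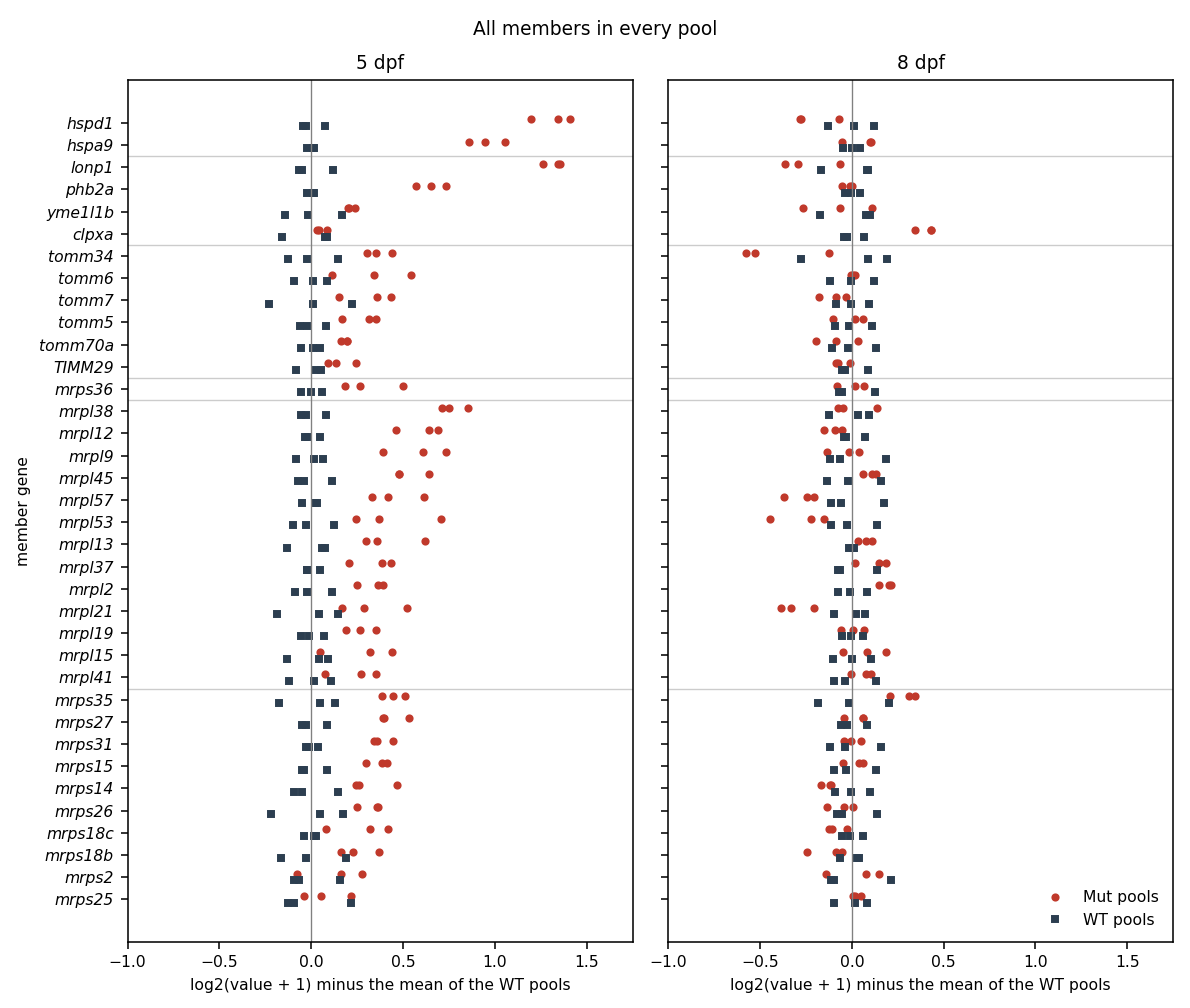
All 36 members at 5 dpf (left) and 8 dpf (right), as log2(value + 1) in each pool minus the mean of the 3 WT pools of that age. Red circles are Mut pools and dark squares WT pools, and lines separate the classes, from chaperones at the top to the small subunit at the bottom. At 5 dpf the Mut pools lie wholly to the right of the WT pools for 29 of 36 members, and at 8 dpf for 4. The same holds for 12.9% of all genes at 5 dpf and for 15.3% at 8 dpf.

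Summed over the 13 large subunit members, the normalized value was 7233 ± 562 in Mut and 5339 ± 110 in WT at 5 dpf (SD, n = 3), a ratio of 1.35. The corresponding ratio was 1.22 for the small subunit, 1.2 for import, 1.56 for the proteases and prohibitin, and 2.12 for the chaperones, whose sum was 12730 ± 896 in Mut and 6015 ± 33.6 in WT. The chaperone sums are dominated by *hspa9* and *hspd1* themselves, which are the only members of that class. *hspa9* alone was 1.93-fold. The ratios of the chaperones and of the proteases and prohibitin include *hspd1* and *lonp1*. Both became members through their call in this comparison, so these 2 ratios are a description only. Within Mut the second pool had the highest value for 26 of 36 members and the first pool the lowest for 23.

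Single libraries decided many of the smaller calls. Without the second Mut pool 6 members were called, and without the third Mut pool 7, whereas leaving out any other library at 5 dpf left the count within 1.5 times of 15. Besides *hspd1* and *lonp1*, these 6 were *hspa9*, *phb2a*, *mrpl12* and *mrpl38*, which were also called under every alternative tried. Log2 fold changes stayed positive for all 36 members in each setting but one. Without the second WT pool, 35 were positive and *clpxa* was at -0.03. An exact permutation test of 3 against 3 pools cannot go below p = 0.1, the value reached by each gene whose groups did not overlap.

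At 8 dpf no member passed the test in either direction (limma, adjusted p under 0.05), where 1.34% of the 20963 genes tested were higher in Mut and 3.32% were lower. At an unadjusted p under 0.05 there were 6 of 36, 3 higher and 3 lower, against 20.8% of all genes. The log2 fold changes were centred on 0, with a median of -0.004 and 18 of 36 positive, against 0.012 and 52.1% for all genes. With every library scaled to the same total, 9 were positive and the median was -0.048, against a median of -0.032 for all genes. The Mut pools lay above all WT pools for 4 members and below them for 5, or 11.1% and 13.9%, while 15.3% and 17.3% of all genes did so. The 95% interval of the log2 fold change lay within 0.5 of 0 for 31 members. The other 5 were *tomm34*, *clpxa*, *mrpl21*, *mrpl53* and *mrps35*. This bound is wider than the members' median of 0.33 at 5 dpf, so it does not show that smaller effects are absent. Of the 15 members called at 5 dpf, 13 had an 8 dpf interval wholly below their 5 dpf estimate, *hspd1* and *lonp1* among them. The exceptions were *mrpl2* and *mrps35*. This comparison is a description, because the 15 were picked as high at 5 dpf and the error of the 5 dpf estimate is left out. By the test of the difference given below, 9 of the 15 had a lower effect at 8 dpf, again with *hspd1* and *lonp1* among them. Of all genes tested at both ages, 6.15% were lower. The count of 9 is a description too, because that test uses the same 5 dpf estimates by which the 15 were picked.

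The genes with the largest differences at 5 dpf no longer stood out. *hspd1* had 5133, 5170 and 5959 in Mut pools at 8 dpf, against 6811, 6294 and 5705 in WT pools. A pair of WT pools lay above all Mut pools and the remaining WT pool among them (log2 fold change -0.21 ± 0.09, limma adjusted p = 0.256). *lonp1* had 742, 779 and 915 in Mut, against 1013, 1014 and 849 in WT (log2 fold change -0.24 ± 0.11, limma adjusted p = 0.261). *hspa9* had 7537, 6797 and 7591 in Mut, against 7279, 7065 and 6813 in WT, and *phb2a* 1739, 1671 and 1726 in Mut, against 1787, 1692 and 1731 in WT. Neither was distinguishable from 0, with log2 fold changes of 0.05 ± 0.08 and -0.02 ± 0.06 (limma, adjusted p = 0.748 and 0.884). The intervals of both end far below their estimates at 5 dpf, at 0.22 and 0.12.

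The extremes of each class at 8 dpf were other genes. *clpxa* had the highest log2 fold change, with 198, 210 and 210 in Mut against 151, 163 and 153 in WT, and the groups were apart (0.40 ± 0.12, limma adjusted p = 0.0986). *tomm34* had the lowest, with 400, 414 and 548 in Mut against 683, 634 and 492 in WT, where the third pools of both genotypes fell between the rest (-0.41 ± 0.16, limma adjusted p = 0.198). In the large subunit *mrpl21* had 469, 487 and 532 in Mut, against 645, 624 and 574 in WT, with no overlap (-0.31 ± 0.09, limma adjusted p = 0.0961). *mrpl2* was at the other end, with 1913, 2003 and 1991 in Mut against 1831, 1642 and 1718 in WT (0.19 ± 0.07, limma adjusted p = 0.172). In the small subunit *mrps35* had 1271, 1396 and 1366 in Mut, against 1262, 968 and 1086 in WT (0.29 ± 0.10, limma adjusted p = 0.163), and *mrps14* 625, 601 and 622 in Mut, against 724, 633 and 672 in WT (-0.13 ± 0.08, limma adjusted p = 0.396). Among import members *tomm6* was highest, with 1059, 1066 and 1074 in Mut and 1152, 978 and 1059 in WT (0.01 ± 0.08), and the single TIM22 member *TIMM29* had 386, 389 and 406 in Mut and 435, 395 and 399 in WT (-0.06 ± 0.09). None of these passed the threshold, and *mrps36* had a log2 fold change of 0.00 ± 0.08.

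The 2 batches at 8 dpf gave unlike pictures of the members. In replicates 1 and 2, 9 of 36 members were higher in Mut, with a median difference of -0.07 on the log2 scale, whereas between the third Mut and the third WT pool 28 of 36 were higher, with a median of 0.09. Over all genes the median in replicates 1 and 2 was 0.016, and for the third pools it was not computed. The totals of the third pools were 24797357 in Mut and 23810782 in WT. Among the WT pools, the first was highest for 31 of 36 members. Without it, 22 of 36 members were positive, with a median of 0.055. Whether the contrast goes with the batch or with that pool was not tested. The sign was the same in both batches for 15 members. The difference of *tomm34* was -0.69 in the first batch and 0.16 in the second, while *clpxa* was at 0.38 and 0.45, and *mrpl21* at -0.41 and -0.11. With 2 pools and 1 pool of each genotype, the batches allow no firm comparison of their own. Without the batch term *clpxa* was called higher (limma, adjusted p = 0.0244) and *mrpl21* lower (limma, adjusted p = 0.0372). *mrps35* was called higher without the first WT pool (limma, adjusted p = 0.0429), and *tomm34* lower without the third Mut or the third WT pool (limma, adjusted p = 0.0472 and 0.0479).

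The effect of the genotype was then compared between the ages for each gene. The log2 fold change was lower at 8 dpf than at 5 dpf for 13 of 36 members (difference of the limma estimates, adjusted p under 0.05), where 6.15% of the 20598 genes tested at both ages were lower. Against 1.94% of all genes, 0 members were higher, and 1 at an unadjusted p under 0.05, *clpxa*. Of the 36 differences, 35 were negative, with a median of -0.37. Without *hspd1* and *lonp1*, which the choice of members touched, 11 of 34 were lower, and 9 of the 30 named without calls. The differences of these 2 genes were -1.53 and -1.56, from log2 fold changes above 1.3 at 5 dpf and below 0 at 8 dpf.

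*hspa9* differed by -0.90 ± 0.10 and *phb2a* by -0.67 ± 0.09 (SE, adjusted p from the limma estimates 3.8e-05 and 2.2e-04). Of the ribosomal members, *mrpl38* differed by -0.77 ± 0.12, *mrpl12* by -0.70 ± 0.10, *mrpl57* by -0.73 ± 0.14 and *mrpl9* by -0.62 ± 0.16. Their adjusted p from the difference of the limma estimates were 6.0e-04, 3.9e-04, 0.00241 and 0.0196. *mrpl12* had 1955, 1873 and 2011 in Mut at 8 dpf, against 2193, 2036 and 2026 in WT, and *mrpl57* 668, 728 and 747 in Mut, against 973, 797 and 828 in WT. Both had all Mut pools below all WT pools at 8 dpf and above them at 5 dpf. *mrpl38* had 1141, 1163 and 1322 in Mut, against 1283, 1232 and 1104 in WT, and *mrpl9* 404, 372 and 419 in Mut, against 465, 376 and 390 in WT, so that the groups of both overlapped. *mrps27*, with 672, 722 and 721 in Mut at 8 dpf against 733, 664 and 680 in WT, differed by -0.41 ± 0.12 (difference of the limma estimates, adjusted p = 0.034).

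A further 4 members had a lower effect at 8 dpf without a call at 5 dpf. *mrpl21* had 260, 306 and 239 in Mut, against 187, 219 and 236 in WT at 5 dpf. The difference of its effects was -0.63 ± 0.16 (difference of the limma estimates, adjusted p = 0.0159). *tomm34*, the only import member among the 13, differed by -0.78 ± 0.19 (difference of the limma estimates, adjusted p = 0.0224). *mrpl53* had 128, 177 and 140 in Mut, against 118, 106 and 101 in WT at 5 dpf, and 277, 237 and 291 in Mut, against 356, 318 and 299 in WT at 8 dpf. Its groups did not overlap at either age and lay in opposite order (difference of the limma estimates -0.71 ± 0.19, adjusted p = 0.0262). *mrps14* had 373, 435 and 377 in Mut, against 348, 304 and 295 in WT at 5 dpf. It changed order in the same way (difference of the limma estimates -0.46 ± 0.13, adjusted p = 0.0362).

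For 6 of the 15 members called at 5 dpf no difference between the ages was called: *mrpl2*, *mrpl37*, *mrpl45*, *mrps15*, *mrps31* and *mrps35*. Of these, *mrpl45* and *mrps31* were next to the threshold (difference of the limma estimates, adjusted p = 0.0505 and 0.0534). *mrps35* kept a log2 fold change of 0.29 at 8 dpf, with a difference of -0.16 ± 0.14. Leaving aside *hspd1* and *lonp1*, the difference was called under every alternative for *hspa9*, *phb2a*, *mrpl12*, *mrpl38* and *mrpl57*. The count of 13 became 8 without the second Mut pool of 5 dpf, and 8 without the first or without the second Mut pool of 8 dpf.

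**Figure D3:**
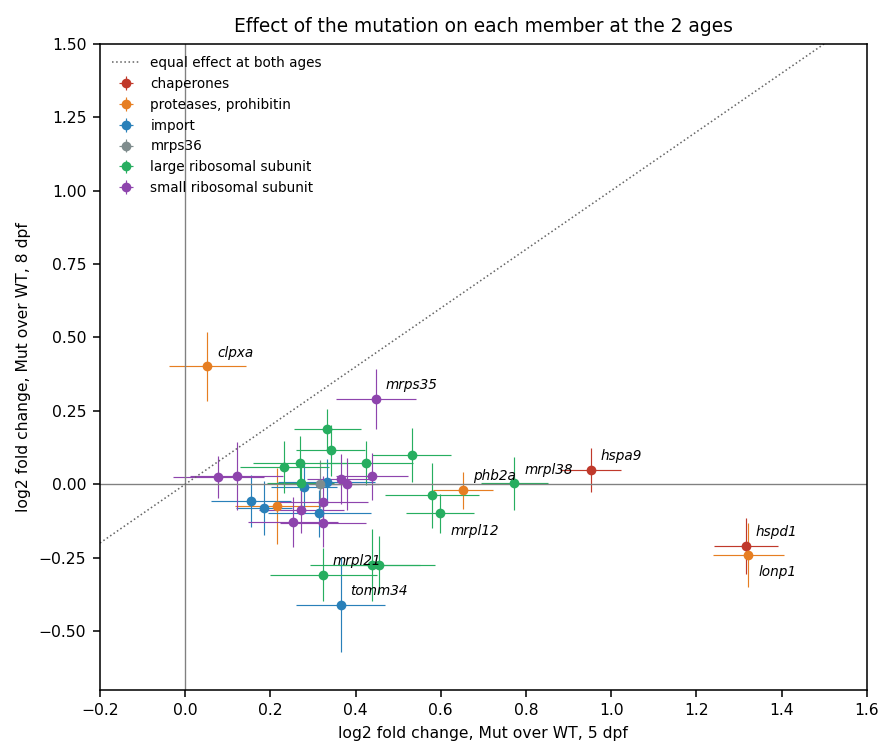
Log2 fold change of Mut over WT of each member at 5 dpf (horizontal axis) and 8 dpf (vertical axis), coloured by class, with bars of 1 SE. Points below the dotted line have a lower effect at 8 dpf. All but *clpxa* lie below it, and *hspd1* and *lonp1* lie farthest, at about 1.3 on the horizontal axis and under 0 on the vertical axis.

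Other genes of the same pathways, not among the members, were examined from lists of the field. Many have symbols of the kind the rule asks for in the reference name table, but not in the part of the study's tables held here, which alone decided membership. Of 146 such genes, 57 were higher in Mut at 5 dpf and 0 lower (limma, adjusted p under 0.05), where 3.82% of all genes were higher. At an unadjusted p under 0.05, 94 were higher and 0 lower (limma). Their median log2 fold change was 0.34. At 8 dpf 0 of 146 were called (limma) and the median was -0.03. An unadjusted p under 0.05 was reached by 18, and by 20.8% of all genes. The effect was lower at 8 dpf for 51 of the 146, where 6.15% of all genes tested at both ages were lower. No difference between the members and these lists was tested.

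The other genes for proteins of the mitochondrial ribosome gave 25 of 56 higher at 5 dpf, with a median of 0.38, where 3.82% of all genes were higher. The largest changes among them were those of *mrpl20* (0.74), *mrps9* (0.57) and *aurkaip1* (0.54). Mitochondrial translation and ribosome assembly factors gave 9 of 42. The largest change was that of a histidyl-tRNA synthetase gene (0.99, limma adjusted p = 4.4e-05) that the sources name either *hars* or *hars2*, so that its place on a mitochondrial list is uncertain. It was followed by *lars2*, a leucyl-tRNA synthetase (0.95), and *tsfm*, an elongation factor (0.82). Of the TOM subunit genes not among the members, 3 of 4 rose, *tomm40l* (0.59), *tomm20a* (0.50) and *tomm40*, which encodes the channel itself (0.33). In the inner membrane, 8 of 15 genes of the TIM23 and TIM22 translocases and the import motor rose, led by *grpel1*, the exchange factor of mtHsp70 (0.65), *timm17a* (0.60) and *timm22* (0.56). The list of sorting and assembly genes, which also holds the outer membrane porins *vdac1*, *vdac2* and *vdac3*, gave 2 of 9, *samm50* (0.63) and *mtx2* (0.43). The processing peptidases gave 2 of 6, both subunits of the presequence peptidase, *pmpcb* (0.68) and *pmpca* (0.43).

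Several partners of the leading members rose too. *hspe1*, encoding the lid of Hsp60 and adjacent to *hspd1* in the zebrafish reference assembly, had 1458, 1738 and 1403 in Mut at 5 dpf, against 946, 872 and 935 in WT (log2 fold change 0.73, limma adjusted p = 0.00124). Its change was smaller than that of *hspd1*, though the difference between the genes was not tested. *phb1*, the other subunit of the prohibitin ring, had 3339, 3574 and 3179 in Mut, against 1829, 1818 and 1829 in WT (0.88, limma adjusted p = 6.8e-05). *afg3l1*, a subunit of the matrix-facing AAA protease that the study's tables list under a clone name, had 907, 900 and 787 in Mut, against 389, 388 and 448 in WT (1.08, limma adjusted p = 1.5e-04). All 3 had Mut pools wholly above WT pools. The peptidase gene *pitrm1* (0.69), *clpp*, the proteolytic partner of ClpX (0.47), *dnaja3b* (0.67), *trap1* (0.47) and *stoml2* (0.63) were also called. Outside the members, the calls at 5 dpf were 3 of 4 matrix chaperones, 3 of 8 proteases and 2 of 2 prohibitin and stomatin-like genes. All were higher in Mut, as were 3.82% of all genes. Of the 8 proteases, 2 had a negative log2 fold change, the lowest being that of *lactb* (-0.15).

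Of 14 stress regulators linked to the mitochondrial unfolded protein response, 4 rose at 5 dpf, where 3.82% of all genes did. Among them were *atf5b* (0.82, limma adjusted p = 3.4e-04), *cebpb* (0.77) and *trib3* (0.66). ATF5 is the mammalian counterpart of the worm factor that drives mitochondrial chaperone genes. *atf5b* was the only one of 13 called at 8 dpf (0.58, limma adjusted p = 0.0452), where 1.34% of all genes were higher. Its values were 2252, 1863 and 1685 in Mut and 1245, 1160 and 1473 in WT. Without the variance trend, 0 of all genes were called at that age (limma). A link between these regulators and the members was not tested.

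**Figure D4:**
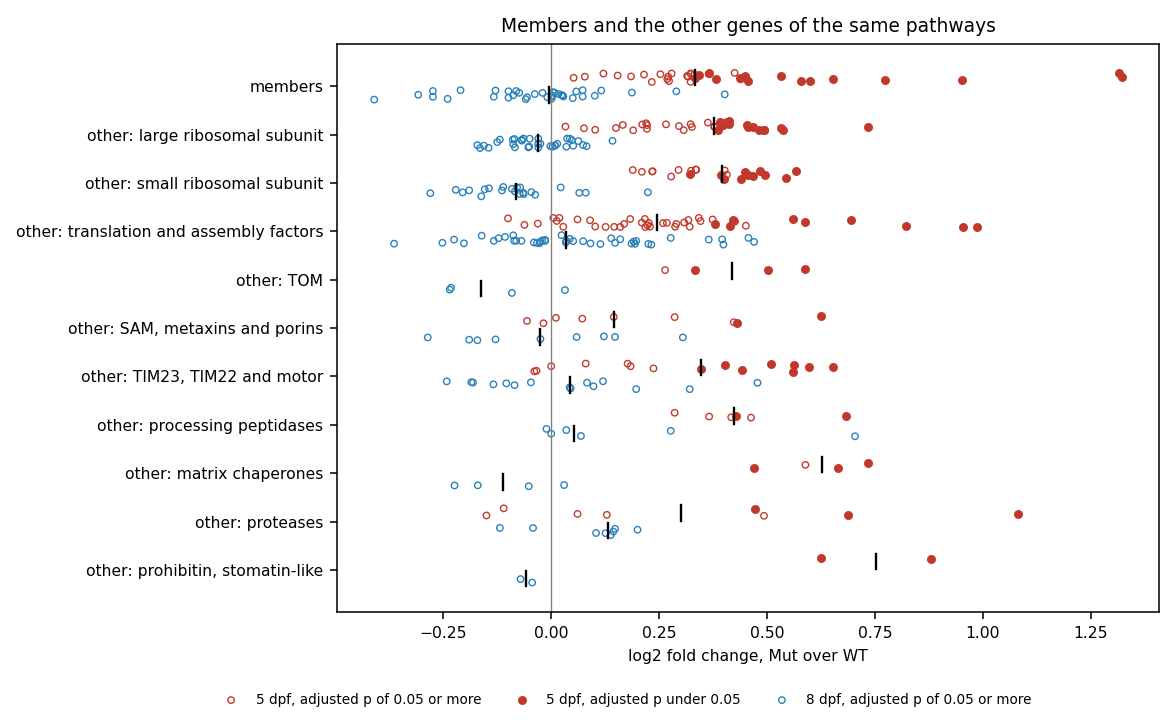
Log2 fold change of Mut over WT of the members (top row) and of the other genes of the same pathways, by list. Red marks are 5 dpf and blue marks 8 dpf, filled where the limma adjusted p was under 0.05, and black lines are medians. The members' median is 0.33 at 5 dpf and -0.004 at 8 dpf, and no gene shown is filled at 8 dpf.

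Transcripts of several tissues moved with the genotype in the same libraries. At 5 dpf 13 of 14 markers of the exocrine pancreas fell, with sums of 68508 to 85222 in Mut pools and 134019 to 186580 in WT pools, and 5 of 13 hepatocyte and 5 of 7 photoreceptor markers fell (limma). Of all genes, 2.17% were lower and 3.82% higher at that age. Of 9 lens markers tested at 5 dpf, 1 was higher and 0 lower (limma), and 7 had a positive log2 fold change. Skeletal muscle, a tissue rich in mitochondria, gave 1 of 11 markers higher, with sums of 456001 to 579779 in Mut and 416816 to 478142 in WT. At 8 dpf the muscle sums were 1231400 to 1332682 in Mut and 779705 to 1103752 in WT with 0 of 11 called (limma, 5 at an unadjusted p under 0.05). At that age 9 of 10 lens, 3 of 12 hepatocyte and 4 of 7 photoreceptor markers fell (limma), where 3.32% of all genes were lower. The pancreas markers gave 0 of 14 at 8 dpf (limma, 8 at an unadjusted p under 0.05, against 20.8% of all genes) with a median of -1.17. Neuron markers gave 0 of 5 at 5 dpf (limma, 2 at an unadjusted p under 0.05), with sums of 16586 to 17127 in Mut and 16222 to 18162 in WT. Of 6 intestine markers, 1 fell at each age. No marker of these 7 tissues was at 0 in any library except the lens gene *crygm1* at 5 dpf. The part of tissue composition in the members' values was not tested.

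The mutated gene itself, *chchd4a* (*mia40a*), was higher in Mut larvae at 5 dpf, where it had 264, 262 and 261, against 82, 91 and 92 in WT larvae (log2 fold change 1.56 ± 0.11, limma adjusted p = 4.3e-05). At 8 dpf the groups overlapped, with values of 383, 413 and 443 for Mut against 488, 394 and 397 for WT (-0.04 ± 0.12, limma adjusted p = 0.875). The study describes its *mia40a* allele, under another name than that in the labels, as a frameshift. The level of the transcript was not used to check the genotype labels.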

How the data were processed

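Per the study's methods, paired reads were trimmed with Trimmomatic 0.33, aligned with STAR 2.4.0a to GRCz10 and counted with featureCounts 1.4.5-p1; whether strand was used in counting is not given in the sources used here. The deposited values are a score per gene: the authors divided the counts by size factors and rounded them, and at 8 dpf also removed a batch effect with edgeR 3.16.5. They are no longer counts. Here, log2(value + 1) was fitted with limma 3.58.1 (R 4.3.3; trended eBayes, two-sided, Benjamini-Hochberg over every gene whose mean over all pools of its age reached 5), each age alone, with the inferred batch as a term at 8 dpf. The difference between ages used both estimates and their standard errors, with Satterthwaite degrees of freedom. Scripts were tested on simulated data, with a spread not taken from these pools. There, a log2 fold change of 0.5 was recovered for 27 of 100 genes at 5 dpf and 16 of 100 at 8 dpf. A difference of that size between ages was recovered for 15 of 192. At 1.5, 100 of 100 genes were recovered at each age, and 191 of 195 differences. At the simulated spread, small effects often went uncalled. Recovery at the spread of these pools was not estimated, and small effects can go uncalled here too. The scaled values do not keep the original depth of each library. P-values measure the spread between pools of siblings.

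The members, lists and tests were chosen with earlier results of these data known. Values per pool were given for members called at either age or in the difference, for *mrps36*, and for the extremes of each class, with TOM genes and *TIMM29* as separate classes; of other lists, for up to 3 called genes by size of change, and others named were chosen after their values were seen. Symbols came from the study's tables, part of which was held, and from a reference name table. In the later assembly GRCz12tu, 13 of the 36 members are overlapped by another gene, *mrpl2*, *mrpl9*, *mrpl37*, *mrpl45* and *mrps35* among those called. Reads over several genes had been left out by the authors. Alternatives were other pseudocounts, filters, scaling, variance moderation and batch handling, the replicate block, and leaving out each library.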

Additional observations from a re-analysis of the deposited data

Results flagged for a closer look

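The effect of the *mia40a* genotype differed between the 2 ages for 11 of 34 members, by the test of the difference itself, leaving out *hspd1* and *lonp1*. All 11 were lower at 8 dpf. Of the 20598 genes tested at both ages, 6.15% were lower and 1.94% higher. As 8 dpf minus 5 dpf on the log2 scale, the differences were -0.90 for *hspa9* and -0.67 for *phb2a*. In the large ribosomal subunit they were -0.77 for *mrpl38*, -0.73 for *mrpl57*, -0.71 for *mrpl53*, -0.70 for *mrpl12*, -0.63 for *mrpl21* and -0.62 for *mrpl9*. In the small subunit they were -0.46 for *mrps14* and -0.41 for *mrps27*, and among import genes -0.78 for *tomm34*. Of these, *hspa9*, *phb2a*, *mrpl12*, *mrpl38* and *mrpl57* kept the call under every alternative tried. It was lost in 13 of 21 alternatives for *mrps14*, in 12 for *mrps27* and in 9 for *mrpl53*. For *mrpl9* and *tomm34* it was lost in 5 each, and for *mrpl21* in 3. The differences of *lonp1* and *hspd1* were -1.56 and -1.53. Both had become members through their call at 5 dpf, which is part of this difference, so their values are a description only. Age and feeding changed together between the 2 sets of libraries and cannot be told apart. Possible starvation of the 8 dpf mutants, which the study names, was not tested.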

How the results depend on the processing

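No result changed direction past its threshold. At 5 dpf the 15 members called higher became 7 with no filter on low values, 6 without the variance trend and 7 with the replicate block, and 6 to 15 when each library was left out. The other pathway genes went to 14, 16 and 26 of 146 under the same 3 settings, from 57, and to 20 to 48 without single libraries, and all genes to 305, 344 and 616, from 1350, and to 482 to 1462. At 8 dpf the counts of 0 members became 1 higher and 1 lower without the batch term, 1 lower in the larger batch alone, and 0 to 1 either way without single libraries. The 0 other pathway genes became 3 without the batch term and 0 to 1 without single libraries. All genes at 8 dpf numbered 977, and 0 without the trend (limma, with 3873 at an unadjusted p under 0.05), 504 with the replicate block, 2331 without the batch term, 141 in the larger batch and 33 to 834 without single libraries. The 13 lower effects became 7 without the trend and 8 to 17 without single libraries, and all 1666 differences became 898 and 1055 to 1770. The cause was not tested. Scaled to equal totals, 9 of 36 members were positive at 8 dpf, with a median of -0.048, against -0.032 for all genes. Replicate numbers showed no pairing of the pools at 5 dpf, where deviations of equal-numbered pools correlated over genes at -0.28, -0.19 and -0.10. At 8 dpf the correlations were -0.28, -0.18 and -0.999, and equal batch means force the deviations of the third pools to be opposite. These correlations cannot show pairing, because the batch effect had been removed from the values. With the block at 5 dpf every member called was among the 15. Values near the threshold and small effects are limited by 3 pools a group.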
